A study of Mus musculus with 19 samples.

Results

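Mouse lung after the middle dose of 8 mixed polycyclic aromatic hydrocarbons was set against lung after vehicle. The comparison was made up of the arrays titled D2 and D0, taken by their titles alone, which gave 10 of the 19 arrays and 10 of the 18 mice of the series, 5 mice in each group. D0 received olive oil and D2 received the mixture in olive oil at 30 mg benzo[a]pyrene (BaP) equivalents per kg body weight per day. All animals were adult males, about 12 weeks old, of MutaMouse (a BALB/c-DBA/2 transgenic line), which carries a bacterial lacZ reporter gene for mutation assays. Dosing was by oral gavage on 28 consecutive days, and the right lung lobe was collected 72 h after the last dose, so the values describe lung RNA of 1 sex and strain at 1 time. Lung RNA was labelled with Cy5 (red) and hybridised on Agilent 2-colour arrays with Universal Mouse Reference RNA, a pool from mouse cell lines, in Cy3 (green) on every array. Values are log2 ratios of red over green, and a log2 difference of 1 is a 2-fold change.

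The 10 arrays lay on 3 slides. Slide 1 held D0 mice 1 and 2 with D2 mice 26 and 28, slide 2 held D0 mice 3 and 4 with D2 mice 29 and 30, and slide 3 held D0 mouse 5 with D2 mouse 23. Every D0 array was in column 1 of its slide and every D2 array in column 3, so the effects of position on the slide and of dose cannot be told apart here. D2 mouse 23 is numbered like the D1 mice, and the methods of the study count 1 mouse fewer in the middle group. Its title puts it in D2 and it stayed there, with calls also made without it and with it in D1. Median red signals were 116 to 150.5 and median green signals 65.0 to 93.0, and 56.1% to 64.7% of spots were well above background in red. No spot was saturated. The lung label held against its markers, since Sftpc of alveolar type 2 cells (log2 ratios 7.16 to 8.30), Scgb1a1 of club cells (7.49 to 8.72) and Ager of alveolar type 1 cells (5.59 to 6.47) were far above the cell line reference in all 10 mice.

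Polycyclic aromatic hydrocarbons enter cells and bind the aryl hydrocarbon receptor (AHR), which pairs with Arnt and switches on genes of aromatic hydrocarbon metabolism, among them the Cyp1 enzymes and the receptor's own repressor Ahrr. Cyp1 enzymes turn some of these hydrocarbons into epoxides that react with DNA, and DNA damage stabilises p53, which induces genes of cell cycle arrest, repair and cell death. The lung holds epithelium, capillaries, alveolar macrophages and lymphocytes, and each of these cells also runs a molecular clock in which Arntl and Clock drive their own repressors.

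The AHR response element has the core GCGTG and the clock's E-box is CACGTG, and the promoters of 4 genes of these pathways that were called in D2 are shown so that the letters can be set beside the values given for each gene. The windows cover the bases just before and just after the start of the gene in RefSeq's promoter table (mouse build GRCm38.p6), are written 5′ to 3′ on the strand of the gene, and have the motif in capitals, as CACGC where GCGTG was read on the opposite strand.
Cyp1a1 (chr9:57697363-57697662, plus strand): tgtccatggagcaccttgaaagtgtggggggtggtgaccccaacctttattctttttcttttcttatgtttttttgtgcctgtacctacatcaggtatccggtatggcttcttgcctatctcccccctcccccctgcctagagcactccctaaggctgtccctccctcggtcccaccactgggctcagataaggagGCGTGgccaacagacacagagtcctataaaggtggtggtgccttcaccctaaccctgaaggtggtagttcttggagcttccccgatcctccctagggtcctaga
Cyp1b1 (chr17:79715012-79715311, minus strand): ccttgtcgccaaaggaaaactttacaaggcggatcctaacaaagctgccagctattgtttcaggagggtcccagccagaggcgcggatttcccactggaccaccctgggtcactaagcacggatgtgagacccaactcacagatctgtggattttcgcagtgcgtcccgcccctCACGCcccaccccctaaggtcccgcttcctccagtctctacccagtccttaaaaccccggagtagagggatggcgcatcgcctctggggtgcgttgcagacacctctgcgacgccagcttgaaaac
Ahrr (chr13:74292282-74292581, minus strand): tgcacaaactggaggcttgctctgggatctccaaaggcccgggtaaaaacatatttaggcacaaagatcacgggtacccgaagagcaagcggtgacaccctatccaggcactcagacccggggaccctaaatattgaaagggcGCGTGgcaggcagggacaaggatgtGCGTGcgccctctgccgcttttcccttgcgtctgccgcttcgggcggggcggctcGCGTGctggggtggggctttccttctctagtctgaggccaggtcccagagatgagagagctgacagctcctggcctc
Tef (chr15:81802423-81802722, plus strand): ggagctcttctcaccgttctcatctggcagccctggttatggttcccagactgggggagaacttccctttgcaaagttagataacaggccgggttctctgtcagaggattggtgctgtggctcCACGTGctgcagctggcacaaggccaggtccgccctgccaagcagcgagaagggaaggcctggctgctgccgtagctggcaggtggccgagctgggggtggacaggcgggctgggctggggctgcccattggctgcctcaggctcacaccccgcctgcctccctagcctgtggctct
GCGTG, searched on both strands, was found in 10639 of 32851 windows (32.4%), and the windows of Cyp1a1, Cyp1b1 and Ahrr held it 1, 1 and 3 times. Among 13 AHR targets with a window, 7 held it, against 35.2% of all genes. CACGTG, which reads the same on both strands and does not contain GCGTG, was found in 2349 windows (7.15%). It was in 4 of 8 clock repressor genes, 3 of 9 clock output genes and 0 of 6 clock activator genes, against 8.09% of all genes, Ciart being in both of the first lists. Of the called clock genes that have a window, Tef alone held it, in each of its 2 windows. A match is only these letters in this window.

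Across the array, 194 of 31018 tested probes (0.625%) were called, that is, changed 1.5-fold or more with a limma adjusted p no higher than 0.05. Of these, 135 were higher and 59 lower in D2. Counted by gene, with the brightest probe of each of 14749 named genes, 101 genes (0.685%) were called higher and 43 genes (0.292%) lower. Of all genes, 54.9% had a change above 0, 45.1% below 0, and 2.92% passed the adjusted p. Among them, 4 higher genes were well above background in fewer than 4 D0 mice and 2 lower genes in fewer than 4 D2 mice, and these passed the signal filter through the groups with more signal. The median change of the called probes was 0.79 for those that rose and -0.81 for those that fell, so the typical called change was below 2-fold, and 57 probes passed 2-fold and 8 passed 4-fold. In 169 of the 194 called probes the 5 D2 mice and the 5 D0 mice did not overlap, against 4.11% of all tested probes, a description since the same mice gave the calls. When arrays were centred on their median in place of loess, which moved the median of all tested probes by 0.12, 18 probes were called, 16 higher and 2 lower, and all 194 kept their direction, 173 of them at 1.5-fold or more.

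Among the called genes other than Ahrr, those with the largest increases were Cyp1a1, Gdf15, Cyp1b1, Ces2e, Cdkn1a and Dbp, and those with the largest decreases were Gzma, Car14, Ear10, Ear1, Spon2, Arntl and Ccl5. RNA came from a whole lobe, in which fewer cells of a type and less RNA per cell cannot be told apart. Among the D2 mice, the median over the 101 higher genes was 0.72 above the D0 mean in mouse 23, the smallest, and 0.94 in mouse 28, the largest. Over the 43 lower genes it was between -0.70 in mouse 28 and -1.06 in mouse 26, and no D0 mouse was beyond 0.04 or 0.08 from the D0 mean in these medians. The genes were called from these same mice, so the distance between the groups in these medians is a description.

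**Figure D1:**
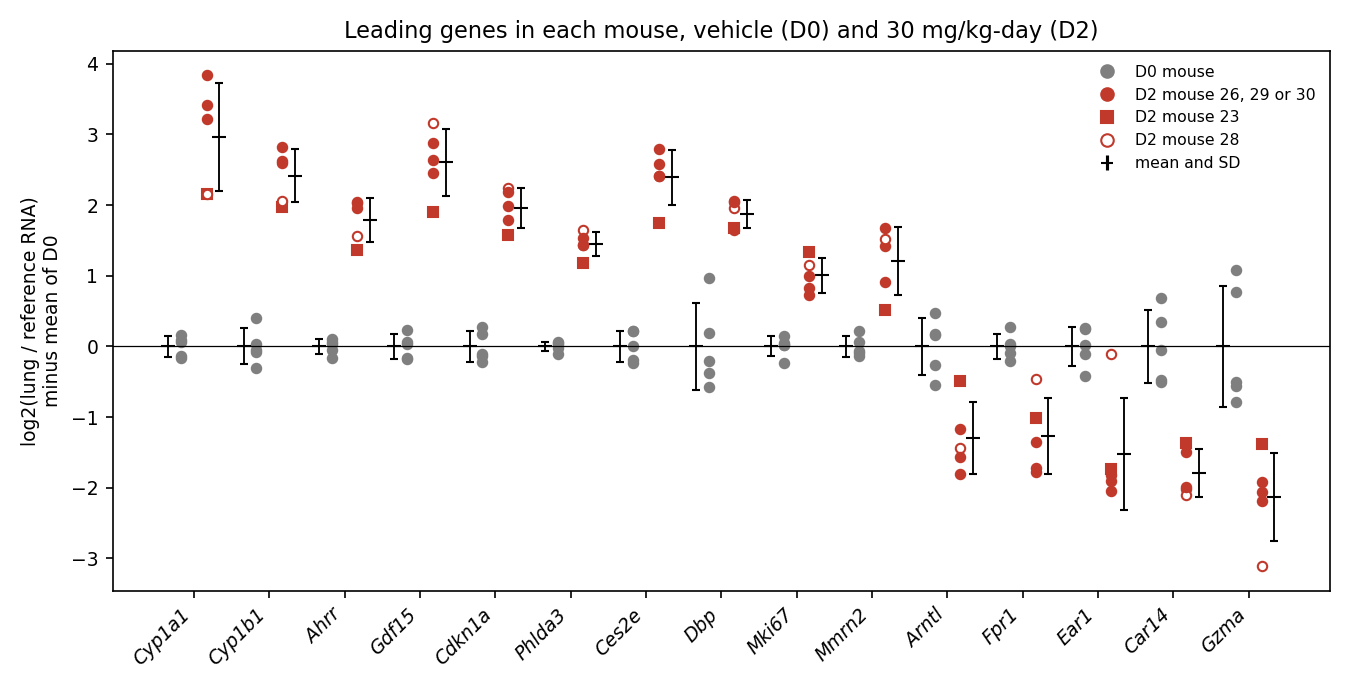
Log2 ratio of lung over reference RNA minus the mean of the D0 mice (y axis) for 15 genes (x axis). Points are mice (grey D0, red D2, square for D2 mouse 23, open circle for D2 mouse 28), and bars give mean and SD of 5 mice. For Cyp1a1 all D2 mice lay at least 1.99 above the highest D0 mouse, and for Ear1 the open circle lay among the D0 mice.

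AHR target genes were called for 3 of 12 tested members, all higher (all genes 0.685%), and the median of the list was 0.05, against 0.02 over all genes. Cyp1a1 (NM_009992), the main hydrocarbon-oxidising P450 of the lung, had log2 ratios of 0.91, 0.99, 0.66, 0.89 and 0.69 in D0 mice 1 to 5 and of 2.98, 4.67, 2.99, 4.25 and 4.05 in D2 mice 23, 26, 28, 29 and 30. The groups did not overlap, and the 5 D2 mice split into mice 23 and 28 near 3 and the other 3 above 4. The change was 7.78-fold (log2 fold change 2.96 ± 0.57 SE, limma adjusted p = 0.00896), on slides 1, 2 and 3 it was 2.88, 3.37 and 2.30, and with median centring in place of loess its adjusted p was 0.0838.

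Cyp1b1 (NM_009994), which makes similar epoxides, was well below the reference in vehicle lung. Its ratios, in the same order of mice as above and in all later sentences, were -2.35, -2.13, -2.01, -1.65 and -2.10 in D0 and -0.07, 0.78, 0.02, 0.58 and 0.55 in D2. Every D2 mouse was above every D0 mouse, and mice 23 and 28 were again the lowest of D2. The change was 2.42 ± 0.22 (limma adjusted p = 2.46e-06). Ahrr (NM_009644), which pairs with Arnt in competition with AHR, had ratios of -0.51, -0.55, -0.77, -0.58 and -0.66 in D0 and 0.75, 1.43, 0.95, 1.41 and 1.35 in D2. Its red signal was well above background in all 5 D2 mice but in 1 of 5 D0 mice, and it passed the signal filter through the dosed groups. The measured means differed by 1.79, which is given as a description because of these D0 signals. Without Ahrr, 2 of 11 AHR targets were called.

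The receptor and most of its other targets had small changes. Ahr itself changed by -0.10 (limma adjusted p = 0.728) and Arnt, its partner, by 0.23 (limma adjusted p = 0.182). Tiparp, an ADP-ribosyltransferase that restrains AHR, changed by 0.16 (limma adjusted p = 0.418), and Nqo1, a quinone reductase under both AHR and NRF2, by 0.36 (limma adjusted p = 0.234). With limma 0 of 17 tested NRF2 targets were called (median 0.04), with 4 at an unadjusted p under 0.05 (all genes 17.1%).

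Carboxylesterases, which split ester bonds of drugs and lipids, were called for 3 of 8 tested members (all genes 0.685%), all of them Ces2 genes. Ces2e (NM_172759) had ratios of 0.31, 0.76, 0.34, 0.75 and 0.54 in D0 and 2.29, 3.12, 2.94, 3.34 and 2.95 in D2. The groups were 1.53 apart, with mouse 23 the lowest of D2, and the change was 5.24-fold (2.39 ± 0.21, limma adjusted p = 1.75e-06). Ces2c changed by 1.02 ± 0.12 without overlap of the groups, although a second Ces2c probe read -0.32, and Ces2b by 0.65 ± 0.14 with D2 mouse 26 inside the D0 range. The Ces2b call was lost without D2 mouse 28 or 29 or D0 mouse 3 or 4. Ces2 genes are close copies of each other, so how much one probe reads of another gene is uncertain. Of 30 further phase I and conjugating enzymes 1 was called, Ephx1, the epoxide hydrolase that takes part in making diol epoxides of benzo[a]pyrene, at 1.99-fold (0.99 ± 0.10, limma adjusted p = 1.87e-05), and the median of that list was -0.03.

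p53 target genes were called higher in both lists of them. Of 16 targets that act in cell cycle arrest and feedback, 7 were called, all higher (median 0.36). Of 24 that act in death, repair and metabolism, 4 were called, all higher (median 0.25), where 0.685% of all genes were called higher. With median centring in place of loess, 4 and 1 genes of these lists were called. Trp53, the transcript of p53 itself, which is controlled mainly as a protein, changed by -0.29 (limma adjusted p = 0.271).

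Gdf15 (NM_011819), a secreted stress cytokine of the TGF-beta family, had ratios of -2.22, -2.02, -2.44, -2.42 and -2.19 in D0 and -0.35, 0.62, 0.91, 0.39 and 0.19 in D2. It was below the reference RNA in each vehicle mouse and above it in 4 of 5 D2 mice, with mouse 23 the lowest. The change was 6.10-fold (2.61 ± 0.17, limma adjusted p = 5.28e-08).

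Cdkn1a (NM_007669), the cyclin-dependent kinase inhibitor p21 that holds cells in G1, had ratios of -1.05, -0.66, -0.97, -0.93 and -0.56 in D0 and 0.75, 1.15, 1.41, 1.36 and 0.95 in D2. The groups were 1.31 apart, and the change was 3.88-fold (1.96 ± 0.14, limma adjusted p = 2.11e-07), with a further probe of the gene at 2.10. Phlda3, an inhibitor of Akt, had ratios of 0.10, 0.17, 0.02, 0.14 and 0.19 in D0 and 1.31, 1.55, 1.77, 1.65 and 1.56 in D2. Both groups were tight, with SDs of 0.07 in D0 and 0.17 in D2, and the groups were 1.12 apart. Its change of 1.45 ± 0.09 had the lowest limma adjusted p of the genes named here, 2.57e-08. Ccng1, cyclin G1, changed by 1.17 ± 0.09 (limma adjusted p = 7.6e-07), and each D2 mouse was above each D0 mouse.

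Trp53inp1, a stress protein of the p53 loop, changed by 1.1 ± 0.09, Aen, a nuclease of apoptotic cells, by 1.03 ± 0.11, and Zmat3, an RNA-binding protein, by 0.83 ± 0.13, all without overlap. Bax, which opens the mitochondrial membrane in apoptosis, had ratios of -1.77, -1.48, -1.55, -2.32 and -2.28 in D0 and -1.62, -0.35, -0.69, -1.05 and -0.54 in D2. D2 mouse 23 lay inside the D0 range, and the change of 1.03 ± 0.23 lost its call without any 1 of D0 mice 4 and 5 and D2 mice 26, 28 and 30. Mdm2, the ligase that marks p53 for breakdown, had a limma adjusted p of 0.0284, but its change of 0.41 was under 1.5-fold and it was not called. Of 26 Bcl2 family members and caspases Bax alone was called (all genes 0.685% higher). Of 20 genes of nucleotide excision repair and lesion bypass 0 were called with limma. Of them, 15 had a change above 0, 1 passed the adjusted p alone and 7 had an unadjusted p under 0.05 (all genes 54.9%, 2.92% and 17.1%).

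Some genes of DNA replication and mitosis were called higher in D2. Of 30 DNA replication genes, all 30 had a change above 0 (median 0.45), 17 passed the adjusted p and 5 passed 1.5-fold as well (all genes 54.9%, 2.92% and 0.685%). Of 27 genes of mitosis and G2, 26 had a change above 0 (median 0.48), 10 passed the adjusted p and 6 were called (the same shares of all genes apply). Of these genes the called ones named here were well above background in red in all 10 mice, although lung was far below the cell line reference.

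Spc25 (NM_001199123), a kinetochore protein of the Ndc80 complex that was in neither list, had ratios of -4.19, -4.04, -4.36, -4.21 and -4.50 in D0 and -2.74, -2.66, -2.62, -3.12 and -2.89 in D2. The groups were 0.91 apart, and the change was 2.74-fold (1.45 ± 0.16, limma adjusted p = 4.01e-05). Rrm2, the small subunit of ribonucleotide reductase, which supplies deoxynucleotides, had ratios of -4.29, -4.37, -4.22, -4.01 and -4.17 in D0 and -3.04, -3.20, -3.07, -3.05 and -2.99 in D2. The D2 mice were close together (SD 0.08) and the change was 1.14 ± 0.20 (limma adjusted p = 0.00413).

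Mki67, the marker Ki-67 of cycling cells, changed by 1.01 ± 0.18, and its other tested probe by 1.17. Uhrf1, which keeps up DNA methylation at replication, changed by 1.02 ± 0.14, with a second probe at 0.09, Mcm2 of the replicative helicase by 0.75 ± 0.12, the licensing factor Cdt1 by 0.69 ± 0.11 and DNA polymerase epsilon (Pole) by 0.59 ± 0.10. Among mitotic genes, survivin (Birc5) changed by 1.03 ± 0.18, with a second probe at 0.29, cyclin A2 (Ccna2) by 1.00 ± 0.17, Cdc20, an activator of the anaphase-promoting complex, by 0.75 ± 0.18 and the motor protein Cenpe by 0.70 ± 0.16. Pcna, the sliding clamp that is also a p53 target, changed by 0.17 (limma adjusted p = 0.472). On slide 3 the mean over the mitosis list was 0.64 above D0, and on slides 1 and 2 it was 0.55 and 0.29. Mouse 28 had the highest mean in both lists (0.66 and 0.73), and without it 4 replication and 3 mitosis genes were called.

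Clock genes moved in both directions. Clock repressors were called higher in 4 of 9 tested members (median 0.46, all genes 0.685%) and clock outputs in 5 of 10, with 1 output called lower (all genes 0.292%) (median 0.58). Among 6 clock activators and ROR factors 1 was called, lower (median -0.28). With median centring in place of loess, 0 repressors, 1 output and 0 activators were called. Dbp (NM_016974), a D-box activator that follows Arntl closely, had ratios of 0.43, 0.61, 1.00, 0.24 and 1.78 in D0 and 2.49, 2.86, 2.76, 2.45 and 2.86 in D2. The D2 mice lay within 0.41 of each other, while D0 mouse 5 was well above the other D0 mice. The change was 3.66-fold (1.87 ± 0.23, limma adjusted p = 0.000118).

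Arntl (NM_007489), which encodes the activator BMAL1, ran the other way with ratios of 0.11, 0.13, -0.31, 0.42 and -0.60 in D0 and -0.55, -1.86, -1.49, -1.22 and -1.62 in D2. The groups overlapped, since D2 mouse 23 was above D0 mouse 5. The change was -1.30 ± 0.24 (limma adjusted p = 0.00721). Nfil3, a repressor that competes with Dbp at D-boxes, fell without overlap, from ratios of -1.63, -1.15, -1.50, -1.17 and -1.70 to -2.04, -2.56, -2.24, -2.40 and -2.57 (limma adjusted p = 0.00181).

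Tef and Hlf, relatives of Dbp, changed by 0.98 ± 0.16 and 0.94 ± 0.20, the kinase Wee1 by 0.94 ± 0.14 and the deubiquitinase Usp2 by 0.73 ± 0.17. Among repressors, Per2 changed by 0.88 ± 0.18 (limma adjusted p = 0.0144), Per3 by 0.76 ± 0.15, REV-ERB beta (Nr1d2) by 0.82 ± 0.14 and Bhlhe40 by 0.59 ± 0.12, the last at 1.51-fold, on the edge of the threshold. Clock changed by -0.35 (limma adjusted p = 0.155), REV-ERB alpha (Nr1d1) by 0.46 (0.213) and Per1 by 0.35 (0.54), and none of these was called.

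The clock differences were of unequal size on the 3 slides, which was not tested. Arntl differed by -1.79, -1.48 and 0.06 between D2 and D0 on slides 1, 2 and 3, Dbp by 2.29, 2.04 and 0.70, Per2 by 0.91, 1.19 and 0.20 and Nr1d2 by 0.91, 1.12 and 0.03. The mean over the repressor list differed by 0.62 and 0.67 on slides 1 and 2 and by -0.00 on slide 3, where 1 mouse stood against 1. In D0 mouse 5 of that slide the mean over the repressors was 0.35 above the D0 mean, the highest of D0, and in D2 mouse 23 it was 0.34, the lowest of D2. With slide as a block, all of these calls held, and without D2 mouse 23 the call of Bhlhe40 alone among them was lost. Of 18 glucocorticoid-responsive genes 0 were called with limma, 2 had an unadjusted p under 0.05 (all genes 17.1%), and the median of the 18 was -0.00. The mean over this list was 0.34 above the D0 mean in D0 mouse 5 and between -0.19 and 0.02 in the other D0 mice, and it differed between D2 and D0 by 0.10, 0.20 and -0.42 on slides 1, 2 and 3.

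**Figure D2:**
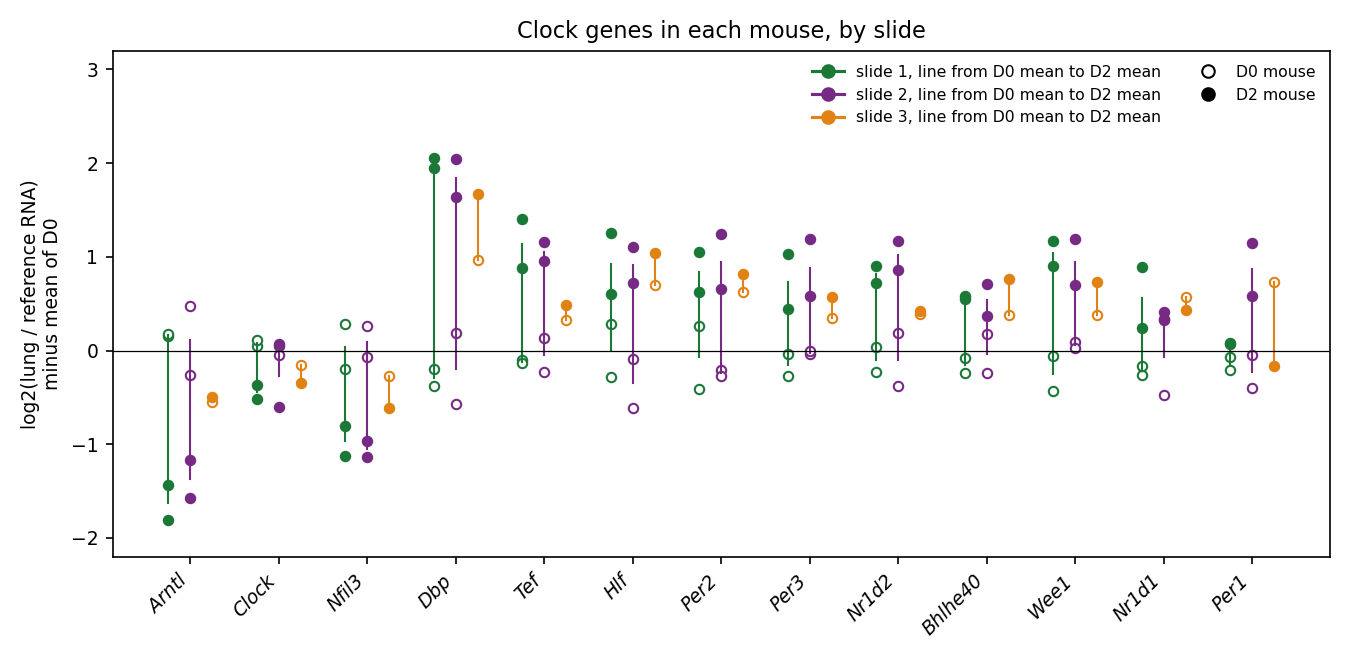
Log2 ratio minus the D0 mean (y axis) of 13 clock genes (x axis), with D0 mice as open and D2 mice as filled points, coloured by slide, and lines from the D0 mean to the D2 mean of a slide. Arntl differed by -1.79, -1.48 and 0.06 on slides 1, 2 and 3, and the Per1 line of slide 3 ran downward.

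Some genes of cytotoxic lymphocytes were called lower in D2. Of 23 tested genes of natural killer (NK) and cytotoxic cells, 5 were called, all lower (all genes 0.292%), 9 passed the adjusted p and the median was -0.34. Gzma (NM_010370), granzyme A, a protease that such cells release into their targets, had ratios of 5.86, 3.98, 5.55, 4.22 and 4.27 in D0 and 3.40, 2.59, 1.67, 2.86 and 2.72 in D2. Every D2 mouse was below every D0 mouse, with mouse 28 the lowest, while D0 mice 1 and 3 were well above the other 3. The fall was 4.38-fold (-2.13 ± 0.40, limma adjusted p = 0.00731), and by slide it was -2.79, -2.09 and -0.88.

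Klra4 (NM_010649), which encodes a Ly49 receptor of NK cells, had ratios of -0.10, -1.23, -0.01, -0.99 and -1.04 in D0 and -1.66, -1.85, -2.06, -2.09 and -1.86 in D2. D0 mice 1 and 3 were again the highest, and no D2 mouse reached the lowest D0 mouse. Klra16 changed by -1.21 ± 0.27 and Klra8 by -0.68 ± 0.14. Klra8 did not pass the filter that asks for signal in all D0 and D2 mice. The Ly49 genes are close copies, so their probes may share signal and the count within the family is uncertain, and from the scanner's processed signals none of the 3 was called. Ccl5, a chemokine stored by cytotoxic cells, fell from ratios of 0.79, -0.49, -0.11, -0.76 and -0.54 to -1.35, -1.30, -1.65, -1.73 and -1.56, 2.45-fold (limma adjusted p = 0.0116).

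Perforin (Prf1) and Klrg1 passed the adjusted p with changes of -0.57 and -0.58, just under 1.5-fold, as did the lineage factors Tbx21 (-0.57) and Eomes (-0.40). Il2rb, Klrd1, Gzmm and Gzmk changed by -0.17, -0.03, 0.21 and 0.09 and did not pass. No T or B cell gene of the lists was called lower. Of 17 T cell genes 0 were called with limma (median 0.24). Of them, 15 had a change above 0 (all genes 54.9%) and 8 an unadjusted p under 0.05 (all genes 17.1%). Cd3d and Cd3e of the T cell receptor complex changed by 0.57 (limma adjusted p = 0.0831) and 0.00. Of 18 B and plasma cell genes 1 was called (all genes 0.685% higher), Prdm1, a factor of plasma cells and effector T cells. It was higher by 0.71 ± 0.12 (limma adjusted p = 0.00417). The median of the list was 0.44, with 15 changes above 0 (all genes 54.9%) and 9 at an unadjusted p under 0.05 (all genes 17.1%). The mean over the B and plasma cell list was -0.54 in D0 mouse 2, between -0.02 and 0.27 in the other D0 mice and between -0.04 and 0.63 in D2, so the groups overlapped. Cd79a of the B cell receptor changed by 0.21 (limma adjusted p = 0.67).

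Alveolar macrophage genes were called lower for 3 of 20 tested members, with 18 of 20 changes below 0 and a median of -0.40 (all genes 0.292% and 45.1%). The called members were Ear1, Ear10 and Siglecf. Eosinophil-associated ribonucleases, which alveolar macrophages of the mouse also express, were called lower for 3 of 5 (median -1.22), and 2 of the 3 called genes, Ear1 and Ear10, were in both lists. Ear10 (NM_053112) had ratios of 5.21, 5.12, 5.71, 5.38 and 5.54 in D0 and 3.62, 3.39, 4.98, 3.66 and 3.69 in D2. Mouse 28 was close to the D0 mice, and the other 4 D2 mice, at 3.39 to 3.69, were far below it. The change was 2.88-fold lower (limma adjusted p = 0.00718). Ear1 had ratios of 4.80, 4.93, 5.17, 4.49 and 5.15 in D0 and 3.17, 3.09, 4.80, 3.01 and 2.87 in D2, with mouse 28 inside the D0 range, and was 2.87-fold lower (limma adjusted p = 0.0163). Rnase2a changed by -1.22 ± 0.28, a call that was lost when any 1 of 6 mice was left out, and Ear2, at -0.78, did not pass. With median centring 0 of the 5 ribonucleases were called. These ribonuclease genes are near-identical copies, so their probes may read 1 transcript more than 1 time.

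Siglecf (NM_145581), a lectin on alveolar macrophages and eosinophils, had ratios of 2.98, 3.19, 3.48, 2.96 and 3.21 in D0 and 2.28, 2.01, 2.66, 2.68 and 0.94 in D2. The groups did not overlap, mouse 30 was far below the other D2 mice, and the change of -1.05 ± 0.26 had a limma adjusted p of 0.0359, which was between 0.026 and 0.0995 with 1 mouse left out and lost the call without 7 of the 10 mice in turn. Its second probe read -0.40. Chil3, a chitinase-like protein of these cells, changed by -1.39 without passing, the scavenger receptor Marco by 0.37 and Fabp4 by -0.06. The mean over the macrophage list was between -0.72 and -0.22 in the D2 mice, with mouse 28 the highest, and between -0.14 and 0.12 in the D0 mice. Of 15 genes of monocytes and interstitial macrophages 0 were called with limma (median -0.10), with 1 at an unadjusted p under 0.05 (all genes 17.1%).

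Of 21 neutrophil genes 1 was called (all genes 0.685% higher), Mmp8, neutrophil collagenase. Its ratios were 0.51, 0.46, 0.43, 0.70 and 0.58 in D0 and 1.20, 1.94, 1.33, 1.55 and 1.52 in D2. It was 1.96-fold higher without overlap (limma adjusted p = 0.00111), and from the scanner's processed signals it was not called. The granule protein Camp (1.34) and the alarmin S100a8 (0.98) had changes of that size or larger and did not pass. The mean over the neutrophil list was 0.20 to 0.69 in D2 and -0.14 to 0.21 in D0. Fpr1 (NM_013521), a formyl peptide receptor of phagocytes, was lower with ratios of 3.32, 3.22, 3.11, 3.35 and 3.59 in D0 and 2.30, 1.53, 2.85, 1.97 and 1.60 in D2. No D2 mouse reached D0, and the change was 2.41-fold (limma adjusted p = 0.00329). Of 27 chemokines and receptors, Ccl5 and Ccl4 (-0.70 ± 0.16) were called, both lower (all genes 0.292%). The Ccl4 call was lost when any 1 of 6 mice was left out. The median of the list was -0.11 and became 0.05 with median centring.

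**Figure D3:**
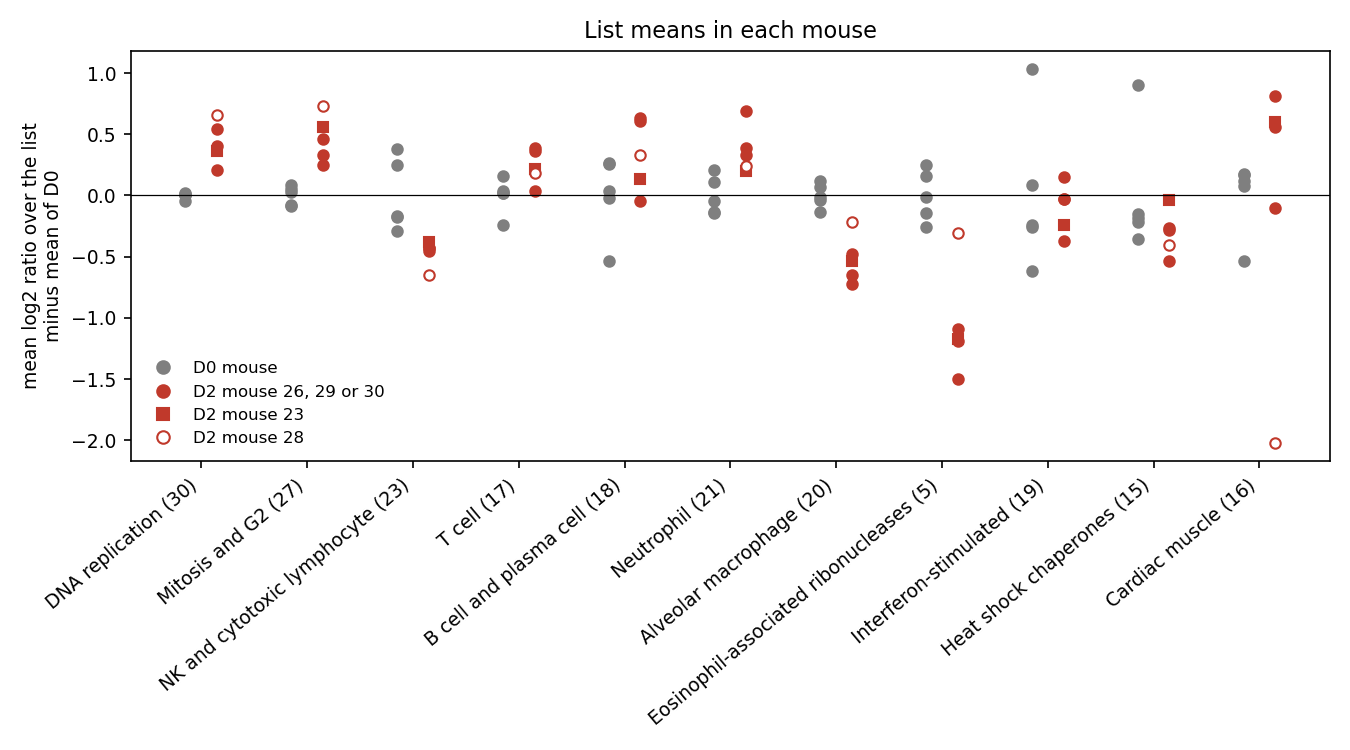
Mean log2 ratio over the tested genes of 11 lists, minus the D0 mean (y axis), for each mouse, with the number of genes in brackets (grey D0, red D2, square for mouse 23, open circle for mouse 28). In the NK list all D2 mice lay between -0.65 and -0.38, and in the cardiac muscle list mouse 28 lay at -2.02, apart from all others.

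Some mice stood apart in genes of heart muscle, stress or interferon response. Mouse lung can carry heart muscle RNA from the pulmonary veins, and Myh6, the atrial myosin heavy chain, was between 5.55 and 6.44 in 9 of the 10 mice and at 1.06 in D2 mouse 28, the same mouse whose Ear1 and Ear10 were near D0. In D0 mouse 2 the heat shock gene Hspa1a was at 4.00, against 0.20 to 1.05 in the other D0 mice, and the mean over 15 heat shock chaperones was 0.90 above the D0 mean. The mean over 6 mesothelial genes ran from -1.22 to 0.85 in D0 and from -1.08 in mouse 23 to 0.27 in D2. In D0 mouse 5 the mean over 19 interferon-stimulated genes was 1.03 above the D0 mean. The part of these differences in the results was not tested beyond leaving out each mouse: the count of called probes was 191 without D2 mouse 28, 194 without D0 mouse 2 and 187 without D0 mouse 5.

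Among genes of vessels and matrix, Mmrn2 (NM_153127), multimerin 2, a protein of the endothelial matrix, had ratios of 5.15, 5.08, 5.12, 5.27 and 5.43 in D0 and 5.72, 6.63, 6.73, 6.89 and 6.12 in D2. All D2 mice were above the D0 mice, with mouse 23 the nearest to them. The change was 2.31-fold (limma adjusted p = 0.00068), and Mmrn2 was the only 1 of 26 endothelial genes called (median 0.07, all genes 0.685% higher). Ramp3, which turns the calcitonin-like receptor into a receptor for adrenomedullin, was higher by 1.35 ± 0.20, while the hormone's gene Adm was lower, at -0.77 ± 0.15, both without overlap. Of 15 hypoxia genes, among which Adm was listed, it alone was called (all genes 0.292% lower).

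Npr3, the clearance receptor of natriuretic peptides, changed by 1.20 ± 0.24 and the laminin chain Lama1 by 1.30 ± 0.18. Lyve1, the hyaluronan receptor of lymphatic endothelium, changed by 0.85 ± 0.20 with overlapping groups (limma adjusted p = 0.0288). Gpihbp1 (NM_026730), which carries lipoprotein lipase to the capillary surface, had ratios of 6.19, 5.85, 6.73, 6.53 and 6.52 in D0 and 6.0, 4.90, 4.94, 5.34 and 5.68 in D2. Mouse 23 lay inside the D0 range, and the fall of 1.99-fold (limma adjusted p = 0.0221) lost its call without D2 mouse 26 or 28 or D0 mouse 3, 4 or 5. Its partner Lpl changed by -0.15, and Gpihbp1 was the only 1 of 10 lipolysis genes called (all genes 0.292% lower).

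Car14 (NM_011797), a membrane-bound carbonic anhydrase, which turns CO2 into bicarbonate, had ratios of 2.21, 2.24, 2.66, 3.07 and 3.41 in D0 and 1.35, 0.70, 0.62, 1.22 and 0.73 in D2. The groups were 0.86 apart at their nearest, and the fall was 3.46-fold (-1.79 ± 0.23, limma adjusted p = 0.000179). The Car14 call was lost with the scanner's processed signals and with median centring. The other 11 tested carbonic anhydrases had changes between -0.28 and 0.03. Celf5, an RNA-binding protein, rose by 1.17 ± 0.14, although its second probe read 0.23, and Dglucy, D-glutamate cyclase, by 1.30 ± 0.20. Spon2, a matrix protein of the spondin family, changed by -1.30 ± 0.26, and like Arntl it differed little on slide 3, at 0.13. Ccnjl, a member of the cyclin family by name, changed by -1.03 ± 0.14 and the anion transporter family member Slc26a10 by -1.0 ± 0.20.

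Of 17 tested kallikreins, a family of serine proteases that was grouped by symbol after its values were seen, 4 were called lower and 0 higher, with a median of -0.09 (all genes 0.292% lower). Klk1b5 (NM_008456) had ratios of 2.42, 1.36, 2.37, 1.68 and 2.09 in D0 and 0.49, 0.58, 1.35, 0.71 and 0.85 in D2, in which D2 mouse 28 lay 0.01 below D0 mouse 2 and the other D2 mice were further down. It was 2.28-fold lower (limma adjusted p = 0.00751), and Klk1b3 and Klk1 changed by -0.68 ± 0.16 and -0.68 ± 0.16. Klk1b26, whose groups did not overlap, changed by -0.64 ± 0.14 (limma adjusted p = 0.0197). The family's genes are close copies, and which of them was read is uncertain. The calls of Klk1b3 and Klk1 were each lost when any 1 of 6 mice was left out.

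Of the 51 gene lists, 28 had no called gene. These were lists of alveolar type 2 cells (0 of 14, median -0.06), alveolar type 1 cells (0 of 11, median -0.15), club cells (0 of 14, median 0.04), motile cilia (0 of 17, median -0.04), fibroblasts and matrix (0 of 24, median 0.07), interferon-stimulated genes (0 of 19, median -0.10), inflammatory cytokines and acute phase genes (0 of 16, median 0.02), PPAR and fatty acid genes (0 of 28, median 0.01) and cholesterol synthesis (0 of 20, median -0.03), among others. Over the 28 lists, 75 of 384 genes (19.5%) had an unadjusted p under 0.05, against 17.1% of all genes. Median centring moved the median over all genes from 0.02 to 0.18, and with it 17 of the 51 list medians went from below 0 to above it, those of the 2 alveolar cell types, the interferon list and the lipolysis list among them. The surfactant gene Sftpc changed by -0.01 and Col1a1, a collagen of fibroblasts, by 0.24. The immediate early list had 1 called gene of 14 (all genes 0.292% lower), the transcription factor Egr2, which was lower, at -0.63 ± 0.13. The Egr2 call was lost when either of 2 mice was left out.

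**Figure D4:**
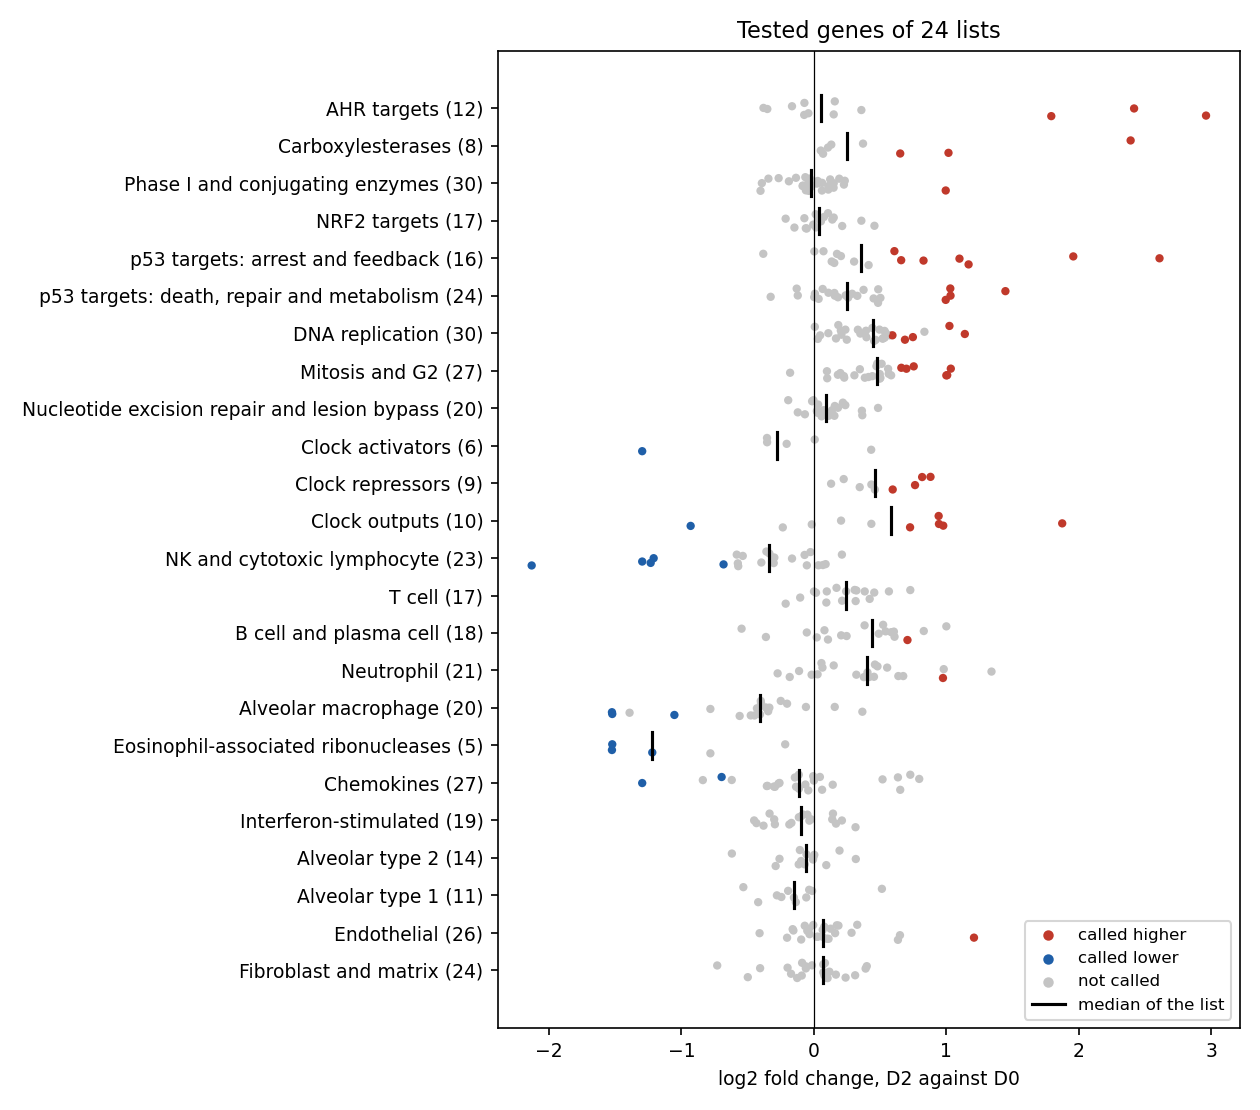
Log2 fold change of D2 against D0 (x axis) for each tested gene of 24 lists (y axis, number of tested genes in brackets), red where called higher, blue where called lower and grey where not called, with the list's median as a black bar. All 30 replication genes lay above 0, and 18 of 20 alveolar macrophage genes below it.

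The middle dose was also set against its neighbours directly. Against D1 (15 mg BaP equivalents per kg per day, 4 mice), limma called 0 of 31018 probes (0%), with 3049 at an unadjusted p under 0.05, and 58 were called when D2 mouse 28 was left out. D3 (60 mg BaP equivalents per kg per day, 4 mice) against D2 gave 33 called probes (0.106%), 29 higher and 4 lower in D3. This count was 16 to 83 with 1 mouse left out, 83 without D2 mouse 28 and 17 without D2 mouse 23 or mouse 30, and 0 with median centring. The 3 doses share their D0 mice, so their changes against D0 are given side by side and not compared.

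Of the 144 genes called in D2, 10 were also called in D3 against D2, namely Gdf15, Cdkn1a, Ccng1, Phlda3, Mmrn2, Celf5, Thyn1, Slc19a2 and Ddit4l, which were higher in D3, and Gpihbp1, which was lower. Cdkn1a changed by 1.95, 1.96 and 3.12 at D1, D2 and D3, with D3 above D2 by 1.16 (limma adjusted p = 0.0024). Ccng1 changed by 1.13, 1.17 and 2.19 (D3 against D2, limma adjusted p = 0.000114), and Gpihbp1 by -0.67, -0.99 and -2.45 (0.0116). In these genes D1 and D2 did not differ detectably and D3 differed from D2.

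For the next 3 genes no difference between neighbouring doses was called. Mki67 changed by 1.31, 1.01 and 0.34 at D1, D2 and D3 and was called at D1 and D2 (D3 against D2 -0.66 ± 0.19, limma adjusted p = 0.184). Cyp1a1 changed by 1.29, 2.96 and 3.61 and was called at D2 and D3 (D2 against D1 1.67 ± 0.61, limma adjusted p = 0.374). Dbp changed by 1.35, 1.87 and 1.72 and was called at each dose.

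A further 27 genes were called at D2 and at neither other dose, 14 higher and 13 lower, and none of them was called between D2 and a neighbour, so no difference between doses was shown for them. Ear1 changed by -0.25, -1.52 and -0.85 at D1, D2 and D3 (D2 against D1, limma adjusted p = 0.29), Siglecf by -0.14, -1.05 and -0.64 (0.311) and Adm by -0.20, -0.77 and -0.50 (0.297). The others with the largest changes were Dapl1 (0.74), the sulfotransferase Chst3 (0.74), Usp2, Cdt1 and the oestrogen-regulated Greb1 (0.68) among those that rose, and Klk1b3 and Klk1 among those that fell.

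**Figure D5:**
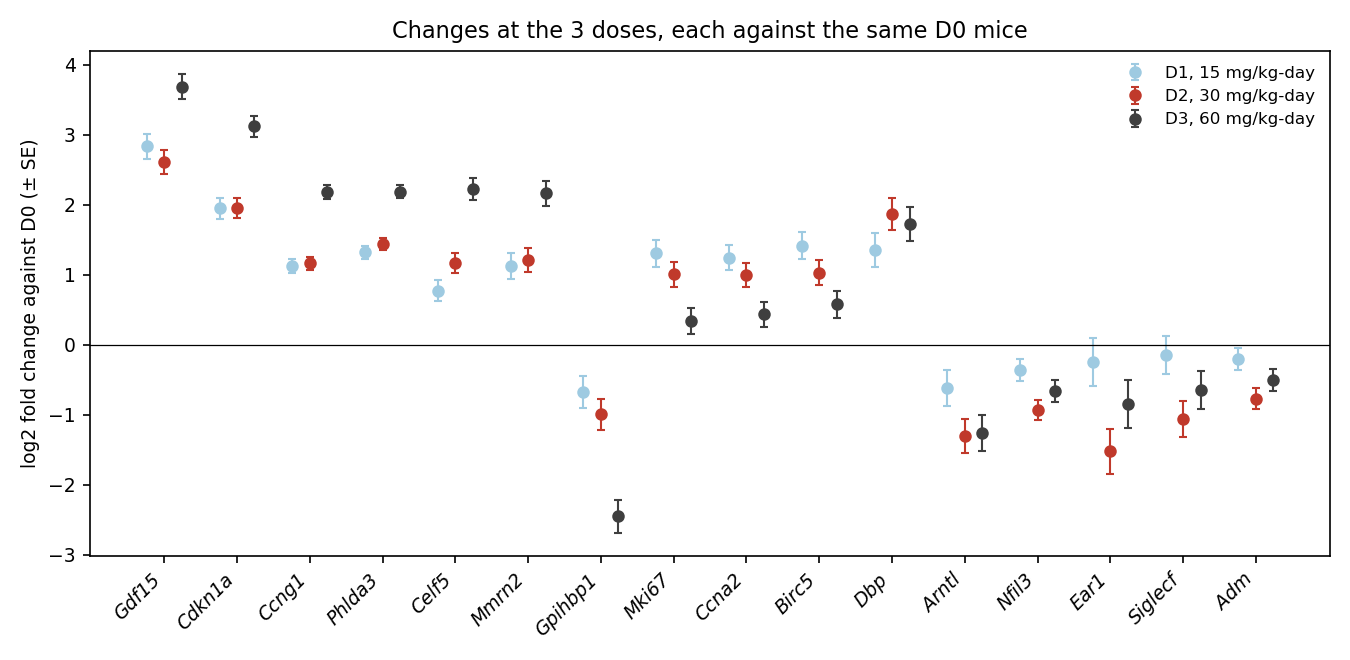
Log2 fold change against D0 with SE (y axis) at D1 (light blue), D2 (red) and D3 (dark grey) for 16 genes (x axis), all against the same 5 D0 mice. Gdf15, Cdkn1a, Ccng1, Phlda3, Celf5 and Mmrn2 were higher and Gpihbp1 was lower in D3 than in D2 by the direct test, while the other genes had no called difference between neighbouring doses.

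Every array carried the same reference RNA in green, and its signals were compared between D2 and D0 in the same way. Green is the same dye and RNA on every array, so it cannot show an effect of position or labelling on red alone. With limma 0 of the probes were called in green, with 800 at an unadjusted p under 0.05, 0 with 384 when centred on the median instead, and 0 with 2839 when slide was a block. Over the 194 called probes the median size of the green difference was 0.042, near the 0.037 of all tested probes, and the median size of the red difference was 0.80. The largest green difference among them was 0.56 and none reached 1.5-fold. Within slides, 142 of the 144 called genes had the sign of their pooled difference on all 3 slides, against 40.8% of all genes. The genes were called from these same mice, so the count is a description. The exceptions were Arntl and Spon2 on slide 3. A change of 1.5-fold or more was found for 126, 119 and 92 of the 144 genes on slides 1, 2 and 3.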

How the data were processed

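Lung RNA of 18 mice was measured on 19 Agilent 2-colour arrays. Per the file headers, Feature Extraction gave median pixel intensity per spot, and the authors deposited red over green as log2 values, normalized by LOWESS within each array without background subtraction and averaged by probe. Here, the intensity values were processed again with limma 3.58.1 in R 4.3.3 (loess, span 0.3), leaving out 3671 of 62976 spots as controls, along with outlier spots. The deposited log2 values of the 10 arrays correlated with these ratios at 0.995 to 0.998. A probe was tested if red was well above background in at least 4 mice of 1 group (31018 of 55681 probes). No local background was removed, so ratios of dim probes are pulled toward 0.

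One limma model covered all 18 mice, the 2 arrays of D3 mouse 35 being averaged. P-values were adjusted by Benjamini-Hochberg over all tested probes. A call needed an adjusted p of at most 0.05 and at least 1.5-fold. Symbols came from the RefSeq gene table of GRCm38.p6 (27235 of 28685 identifiers matched), and a gene was read by its brightest probe. The gene lists and named genes were chosen with earlier results of these data known. Named genes were a list of pathway genes, the 15 largest called changes each way with all 5 D2 mice on 1 side of the D0 mean, the 5 largest each way among those called at D2 alone, the 3 called genes with the largest D2 spread, and up to 5 called members of each list, or its leading members where none was called. Camp, Chil3, Ddit4l, Ear2, Eomes, Fabp4, Gzmk, Gzmm, Il2rb, Klk1b26, Klrd1, Klrg1, Lpl, Marco, Prf1, S100a8, Slc19a2, Tbx21 and Thyn1 were named after their values were seen. Alternatives were the scanner's processed signals, normexp, median centring, red alone, the deposited table, 2 filters, slide as a block, mouse 23 in D1 and leaving out each mouse. The fit was tested on simulated data with known changes. The number of arrays limits the precision.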

Additional observations from a re-analysis of the deposited data

Results flagged for a closer look

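In 20 of 268 groups of 5 mice checked, the highest or lowest mouse was far from the other 4. Chance flags about 1 in 20 groups. All values are log2 ratios.

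D2 mouse 28 stood apart in 5 genes. Myh6, atrial myosin, was at 1.06 (the other D2 mice 6.14 to 6.44), and Myl7, an atrial myosin light chain, at 0.36 (3.61 to 4.70). Ear1 was at 4.80 (2.87 to 3.17) and Ear10 at 4.98 (3.39 to 3.69), both near the D0 mice. Tiparp was at -0.80 (-0.64 to -0.62).

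D0 mouse 2 stood apart in 7 genes. The chaperones Hspa1a and Hspa8 were at 4.00 (the other D0 mice 0.20 to 1.05) and 1.52 (0.41 to 0.60). Dapl1 was at 0.79 (1.48 to 1.67), Chst3 at 2.09 (2.76 to 3.03), Cd3d at 1.79 (2.34 to 2.46), the cytokine Il1b at 2.00 (1.65 to 1.74) and Ccnjl at -1.20 (-1.41 to -1.36).

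The others were single genes in a mouse. In D0, Cfd, adipsin, was at 2.52 in mouse 5 (4.88 to 5.77), Spon2 at -1.73 in mouse 5 (-0.82 to -0.45), Myl7 at 2.65 in mouse 3 (3.82 to 4.28) and Cd3e at -0.59 in mouse 1 (-0.94 to -0.84). In D2, Acta2, smooth muscle actin, was at 0.59 in mouse 23 (-0.39 to -0.29), Trp53 at -1.32 in mouse 23 (-1.94 to -1.85), the MHC gene H2-K1 at 3.21 in mouse 29 (2.67 to 2.78) and the glutathione synthesis gene Gclm at 0.07 in mouse 26 (-0.46 to -0.31).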

How the results depend on the processing

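The count of D2 against D0 (194 probes) was 348 from the scanner's processed signals, 18 with median centring, 647 by the adjusted p alone and 57 at 2-fold, and it was 165 to 218 with 1 mouse left out. With slide as a block it was 218, with mouse 23 in D1 220 and 191 from the values the authors deposited. For D2 against D1 (0 probes) the slide block gave 1 probe, leaving out mice gave 0 to 58, 58 without D2 mouse 28 and 1 without D0 mouse 2. For D3 against D2 (33 probes) processed signals gave 21, median centring 0 with 411 at an unadjusted p under 0.05, mouse 23 in D1 14, the adjusted p alone 56 and 2-fold 8. Leaving out mice gave 16 to 83 there, namely 83 without D2 mouse 28, 17 without D2 mouse 23 or mouse 30, 16 without D3 mouse 35 and 19 without mouse 31 or mouse 32 of D3. The cause was not tested.

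No named called gene changed direction under these alternatives, and 32 of 64 named genes that were not called changed sign in at least 1. Of the 47 genes called higher and 23 called lower that were named, 9 kept their call in all 28 alternatives (Ccng1, Cdkn1a, Celf5, Ces2e, Cyp1b1, Dbp, Gdf15, Phlda3 and Trp53inp1). Ahrr and Klra8 were not tested with the filter that asks for signal in all D0 and D2 mice. Of the named called genes, 59 lost their call with median centring and 15 with processed signals. Beyond the genes whose mice are given above, calls were lost without any 1 of the mice in brackets for Bhlhe40 (D0 1, 2, 4, D2 23, 30), Ccl4 (D0 1, 3, 5, D2 23, 29, 30), Cdc20 (D0 1, 2, 3, 5, D2 23, 28), Cenpe (D0 3, 5, D2 28), Chst3 (D0 2, 5, D2 28, 29, 30), Dapl1 (D0 2, 3, 4, 5, D1 24, 25, D2 26, 28, 29, 30), Ear1 (D0 3), Egr2 (D0 1, D2 30), Klk1 (D0 1, 3, 5, D2 23, 26, 29), Klk1b3 (D0 1, 3, 5, D2 23, 29, 30), Klra16 (D0 1, 3, D2 28), Lyve1 (D0 1, 3, 4, 5, D2 26, 28, 29), Pole (D0 2, 3, D2 23, 28, 30), Rnase2a (D0 3, 4, 5, D2 23, 26, 29), Siglecf (D0 1, 2, 3, 4, 5, D2 23, 26) and Usp2 (D0 1, 2, 3, D2 26, 30). Counts and medians of the gene lists under leave-one-out, the slide block and the other signals were chosen after seeing the data. Leaving out 1 mouse or changing the setting, 4 to 10 replication genes, 3 to 12 mitosis genes, 3 to 8 NK genes and 1 to 4 alveolar macrophage genes were called, median centring aside, which called 0 of each. The normexp correction used median signals. No paired analysis was possible because the groups share no mouse number, and slide was used as a block instead.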
